A study of Mus musculus with 4 samples.

Results

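The genes of the endoplasmic reticulum (ER) stress response and of its ATF4 branch were examined in cultured mouse mesenchymal stem cells (MSC), plastic-adherent stromal cells, from bone marrow and colon. The members were a list of 39 genes known from these pathways, and each was represented by the probe sets that the platform annotation assigns to exactly 1 symbol of the list. In all, 98 of 45101 probe sets belonged to 38 of the 39 members, out of 18193 named genes on the array, and Pycr1, an enzyme of proline synthesis, is not analysed here. The bone marrow group consisted of 2 MSC lines isolated from the marrow of C57BL/6 mice, and the colonic group of 2 lines isolated from flushed colon of the same strain. All lines were isolated by adherence after collagenase digestion, grown in low-glucose DMEM with HEPES and 10% FBS, and lysed between passages 5 and 10, with no stress agent named. Each line was hybridised to 1 Affymetrix mouse expression array after RNA amplification, so a group is 2 lines, and neither the age of the mice nor the passage of an individual line is stated. The labels call the arrays biological replicates. P-values measure the spread between these lines alone.

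Proteins that enter the ER are folded there by chaperones such as BiP and by protein disulfide isomerases, and misfolded ones are returned to the cytosol and degraded. When unfolded proteins accumulate, 3 membrane sensors respond: IRE1 splices the Xbp1 mRNA, ATF6 is cut to release a transcription factor, and PERK phosphorylates the initiation factor eIF2, which slows translation but favours that of Atf4. ATF4, which other eIF2 kinases also induce when amino acids or haem are short, drives genes of amino acid synthesis, amino acid uptake and stress feedback. Fibroblast-like cells secrete collagen and other matrix proteins and carry abundant ER chaperones in culture.

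Promoter elements through which genes of the ER and ATF4 branches are known to be switched on are shown first. Many members held neither element in the promoter stretch searched, and the measurements below are grouped by the role of the genes. Of 36 members with an entry among the RefSeq promoters (GRCm38.p6, 250 bases before to 50 after the annotated start), 8 held the ER stress response element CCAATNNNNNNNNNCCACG on either strand, against 37 of 27025 genes with a promoter (0.137%). The ER stress response element is bound by ATF6 with NF-Y. In the stretches below the element is in capitals, and in Creld2 it runs on the opposite strand.
Hspa5 (chr2:34772010-34772058, plus strand): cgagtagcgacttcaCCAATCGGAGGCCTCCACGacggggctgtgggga
Pdia6 (chr12:17266476-17266524, plus strand): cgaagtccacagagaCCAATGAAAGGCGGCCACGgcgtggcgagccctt
Dnajc3 (chr14:118937812-118937860, plus strand): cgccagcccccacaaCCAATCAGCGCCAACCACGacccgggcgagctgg
Creld2 (chr15:88819505-88819553, plus strand): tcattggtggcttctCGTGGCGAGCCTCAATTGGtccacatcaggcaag
Syvn1 (chr19:6046517-6046565, plus strand): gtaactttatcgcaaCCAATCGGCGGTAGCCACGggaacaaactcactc
The others were Calr, Canx and Hsp90b1, and the element was thus held by 7 of 12 chaperone and folding members with a promoter entry and by Syvn1, a degradation gene, while none of 8 sensors and transcription factors, 5 effectors and 7 biosynthetic genes with an entry did. The shorter ATF6 and XBP1 core TGACGTG occurred in 1 member, Hspa5, and in 2.22% of all genes. A CCAAT and a CCACG at any spacing occurred in 23 members and in 13.3% of all genes.

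A different element is known from the ATF4 branch. The CHOP and ATF4 composite element, searched on both strands as TGATGNAA, occurred in 8 of the 36 members and in 4.51% of all genes. With C or T at the variable base it occurred in 7 members and 2.26% of all genes. The following stretches belong to members with some of the wider differences between lines, and are again in gene orientation with the element in capitals.
Asns (chr6:7693210-7693247, minus strand): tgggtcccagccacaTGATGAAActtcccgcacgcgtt
Chac1 (chr2:119351034-119351071, plus strand): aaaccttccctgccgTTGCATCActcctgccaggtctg
Atf3 (chr1:191183421-191183458, minus strand): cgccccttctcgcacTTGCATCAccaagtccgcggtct
Nupr1 (chr7:126625558-126625595, minus strand): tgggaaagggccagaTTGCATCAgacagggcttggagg
Vldlr (chr19:27216805-27216842, plus strand): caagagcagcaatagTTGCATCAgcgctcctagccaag
The remaining members with this element were Herpud1, Pycr1 and Trib3, and no member held both elements in its window. A match describes letters in the window and shows no binding.

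Array medians lay between 53.6 and 55.5 intensity units, and the brightest probe sets reached 19203 to 20912. Intensities have no fixed unit and are compared only between arrays for the same probe set. Of 9 stromal markers Ly6a had no usable probe set, and the other 8 passed the filter on low values described under the processing. Their sums were 39987 to 54770, with Col1a1 (9701 to 12750) and Col1a2 (14901 to 15827) as the largest parts. Thy1, a surface marker of MSC, was at 22.0 to 32.8 in the marrow lines against 4516 and 9032 in the colonic lines. Nt5e was at 76.3 and 27.9 in the marrow lines and at 209 and 27.6 in the colonic lines. Of other cell types, 5 of 8 macrophage, 2 of 7 B and plasma cell, 6 of 8 intestinal epithelial and 3 of 6 endothelial markers were above the filter, while Ptprc, Epcam and Pecam1 were not. The summed epithelial markers were at 1333 on colonic replicate 1, against 313 to 470 elsewhere, which rested on Krt20, an intestinal keratin (889 against at most 29.4). The macrophage sum was 2833 on bone marrow replicate 1 and 1084 to 1636 elsewhere, with Lyz2 as the main part (1589). B and plasma cell markers summed to between 3459 and 6357, nearly all of it Sdc1, which stromal cells also express. The endothelial sum was 251 on colonic replicate 1 and 108 to 185 elsewhere, and Kdr, a VEGF receptor, had 31.9 and 18.5 against 91.1 and 68.9 (unadjusted p = 0.0100 and adjusted p = 0.521 by limma). The part of these markers in the results below was not tested. In cultures measured as bulk RNA, fewer cells expressing a gene and less RNA per cell cannot be told apart.

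The question was whether these stress genes differ between colonic and bone marrow MSC. No member passed an adjusted p of 0.05 in limma's moderated test over 12920 genes, where 0 genes did (0%). The smallest adjusted p over all genes was 0.0502, just above that threshold, and the members' adjusted p-values lay between 0.760 and 0.999. At an unadjusted p below 0.05 there was 1 member of 38, Aldh18a1, against 6% of all genes tested. The median log2 difference, colonic minus bone marrow, was -0.03 over the 38 members and 0.01 over all genes. Atf3 was the 1 member whose tissue means lay at least 2-fold apart, against 9.02% of all genes. The tissues did not overlap for 16 of 38 members, against 33.5% of all genes. Of these members 9 lay higher and 7 lower in colonic MSC, against 18.4% and 15.1% of all genes. All 38 members passed the filter on low values, through 91 of the 98 probe sets.

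The roles differed in which line stood at the extremes. Of 14 chaperone and folding genes 9 were highest on colonic replicate 1, where 30.1% of all genes were highest. Of 6 amino acid and one-carbon genes 6 were lowest there, where 28.8% of all genes were lowest. Bone marrow replicate 2 stood at the opposite extremes, lowest for 7 of the 14 chaperone and folding genes (32.5% of all genes). It was highest for 5 of the 6 amino acid and one-carbon genes (23.9% of all genes). Over all 38 members, 15 were highest and 12 lowest on colonic replicate 1, the latter close to the share of all genes. Of 4 degradation genes 2 were highest and 0 lowest there, of 9 sensors and transcription factors 3 and 3, and of 5 effectors 1 and 2. On bone marrow replicate 1, 4 of the 9 sensors and transcription factors and 3 of the 5 effectors were highest (24.1% of all genes). Of the epithelial markers above the filter, 4 of 6 were also highest on colonic replicate 1, while Epcam and Vil1 were below the filter. For endothelial markers it was 3 of 3, for macrophage markers 3 of 5, and for B and plasma cell markers 0 of 2. Krt20 exceeded the filter intensity of about 31.9 on colonic replicate 1 alone. Kdr, Tek and the macrophage marker Cd68 lay below it on bone marrow replicate 2. Such marker counts are therefore partly set by the filter. No test is available for a single line.

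**Figure D1:**
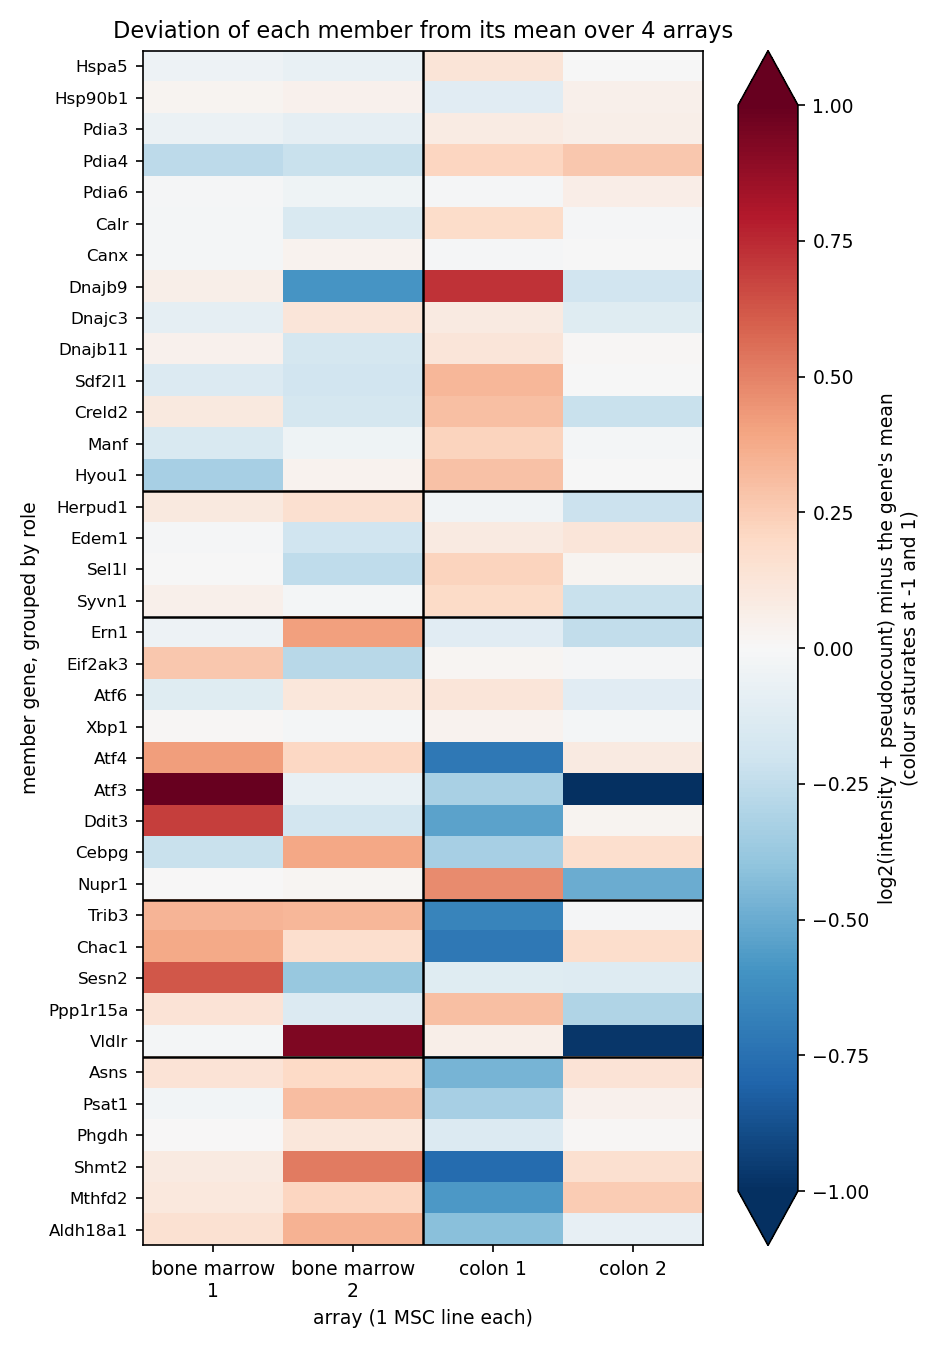
Heat map of the 38 members (rows, grouped by role and separated by black lines) on the 4 arrays (columns), coloured by the log2 deviation of each gene from its own mean over the arrays, with full colour from -1 and 1 outward. The bottom block of amino acid and one-carbon enzymes is blue on colonic replicate 1 in all 6 genes, while most of the chaperone block at the top is red there.

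The ER chaperones and folding enzymes had intensities of 858 to 10685 over the 4 arrays. Hspa5, which encodes BiP, the chaperone that holds the 3 sensors inactive, was at 9093 and 8962 in the bone marrow lines and at 10279 and 9420 in the colonic lines. The tissues did not overlap, but the log2 difference was 0.12 ± 0.10 (SE, limma, 95% interval -0.13 to 0.38), and it was -0.24 in another of its 3 probe sets. Calr, the lectin chaperone calreticulin, had 7825 and 7150 in the marrow lines and 9013 and 7882 in the colonic lines, with a log2 difference of 0.17 ± 0.12 (SE). Its membrane-bound partner Canx, calnexin, had 7897 and 8238 against 7953 and 8000. In the probe sets used it was the least variable chaperone, spanning 0.06 on the log2 scale. Dimmer probe sets of Canx had log2 differences of 0.10 and -0.15. Hsp90b1, the ER form of HSP90, had 8679 and 8757 in the marrow lines and 7861 and 8806 in the colonic lines. It was the 1 chaperone member that was lowest on colonic replicate 1, and its promoter window held the ER stress response element at 2 places.

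Among the protein disulfide isomerases, which form and reshuffle disulfide bonds, Pdia4 had the largest difference of the members. It had intensities of 858 and 877 in the bone marrow lines and 1199 and 1240 in the colonic lines. Both colonic lines lay above both marrow lines, with a log2 difference of 0.48 ± 0.27 (SE, unadjusted p = 0.134 and adjusted p = 0.965 by limma). Pdia3 had 6619 and 6492 against 7307 and 7187, a log2 difference of 0.14. Pdia6 had 10120 and 9940 against 10142 and 10685, a log2 difference of 0.05. The tissues did not overlap for either of them. Pdia5, from the list of other folding genes, had 3468 and 2300 against 3801 and 4926, a log2 difference of 0.61 (unadjusted p = 0.0846 by limma).

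The co-chaperones and small secreted factors gave the widest spread of the folding group. Dnajb9, the J-domain protein ERdj4 and a known target of spliced XBP1, had 2124 and 1346 in the marrow lines and 3374 and 1785 in the colonic lines. Colonic replicate 1 was highest and bone marrow replicate 2 lowest, 1.32 apart on the log2 scale, and the tissues overlapped (log2 difference 0.53 ± 0.42, SE, 95% interval -0.59 to 1.66). Sdf2l1, a subunit of the BiP chaperone cycle, had 906 and 872 against 1262 and 995. Manf, a secreted survival factor that ER stress induces, had 5062 and 5443 against 6553 and 5535, without overlap for both of these genes. Hyou1, the nucleotide exchange factor of BiP, had 2003 and 2589 against 3092 and 2517, and Creld2, a secreted ER protein, 3334 and 2751 against 3826 and 2660. In all 4 of these genes colonic replicate 1 was the highest array. Dnajb11 behaved likewise with smaller steps (5208 and 4462 against 5481 and 5083), while Dnajc3, the P58IPK co-chaperone, was highest on bone marrow replicate 2 (2839 and 3302 against 3217 and 2791). The other 4 probe sets of Dnajc3 were highest on colonic replicate 1, with log2 differences of 0.07 to 0.39.

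Over the 14 chaperone and folding genes, 11 had a positive and 3 a negative log2 difference, against 6649 and 6271 of all 12920 genes. Their median was 0.14, and 0 passed at an unadjusted or adjusted p of 0.05. Without colonic replicate 1 the median was 0.076, with 3 negative differences. Of their 28 probe sets above the filter 19 were highest on colonic replicate 1. Probe sets of a gene share the same RNA and are not replicates.

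ER-associated degradation was covered by 4 members. Sel1l, the scaffold of the HRD1 ubiquitin ligase, had 4485 and 3771 in the marrow lines and 5235 and 4580 in the colonic lines, and all 4 of its probe sets above the filter had positive differences, from 0.25 to 0.64 on the log2 scale. Edem1, a lectin that hands over misfolded glycoproteins, had 3957 and 3467 against 4244 and 4340, and a log2 difference of 0.21, against 0.72 in its other probe set. Syvn1, the ligase HRD1 itself, had 2426 and 2315 against 2683 and 2004, so that the colonic lines enclosed the marrow lines. Herpud1, a membrane factor of the same complex, lay lower in colonic MSC, with 4212 and 4396 in the marrow lines and 3842 and 3390 in the colonic lines, a log2 difference of -0.25 ± 0.16 (SE). Herpud1 was also the 1 degradation member whose promoter held the ATF4 composite element.

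Among the sensors, Eif2ak3, the gene of PERK, had 1826 and 1251 in the marrow lines and 1534 and 1505 in the colonic lines, and Atf6 had 1356 and 1602 against 1608 and 1363. Their log2 differences were 0.01 each, with 95% intervals of -0.77 to 0.78 and -0.68 to 0.69 by limma, so that differences of up to about that size are not excluded for either gene. Ern1, the gene of IRE1, had 1221 and 1693 against 1169 and 1069, a log2 difference of -0.36 ± 0.29 (SE), and 0.30 in another probe set. Xbp1 spanned 0.05 on the log2 scale in the probe set used, with 6490 and 6365 against 6600 and 6365. Over its 4 probe sets the log2 difference ranged from -0.30 to 0.01. These probe sets report total Xbp1 mRNA, and its splicing was not measured here.

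**Figure D2:**
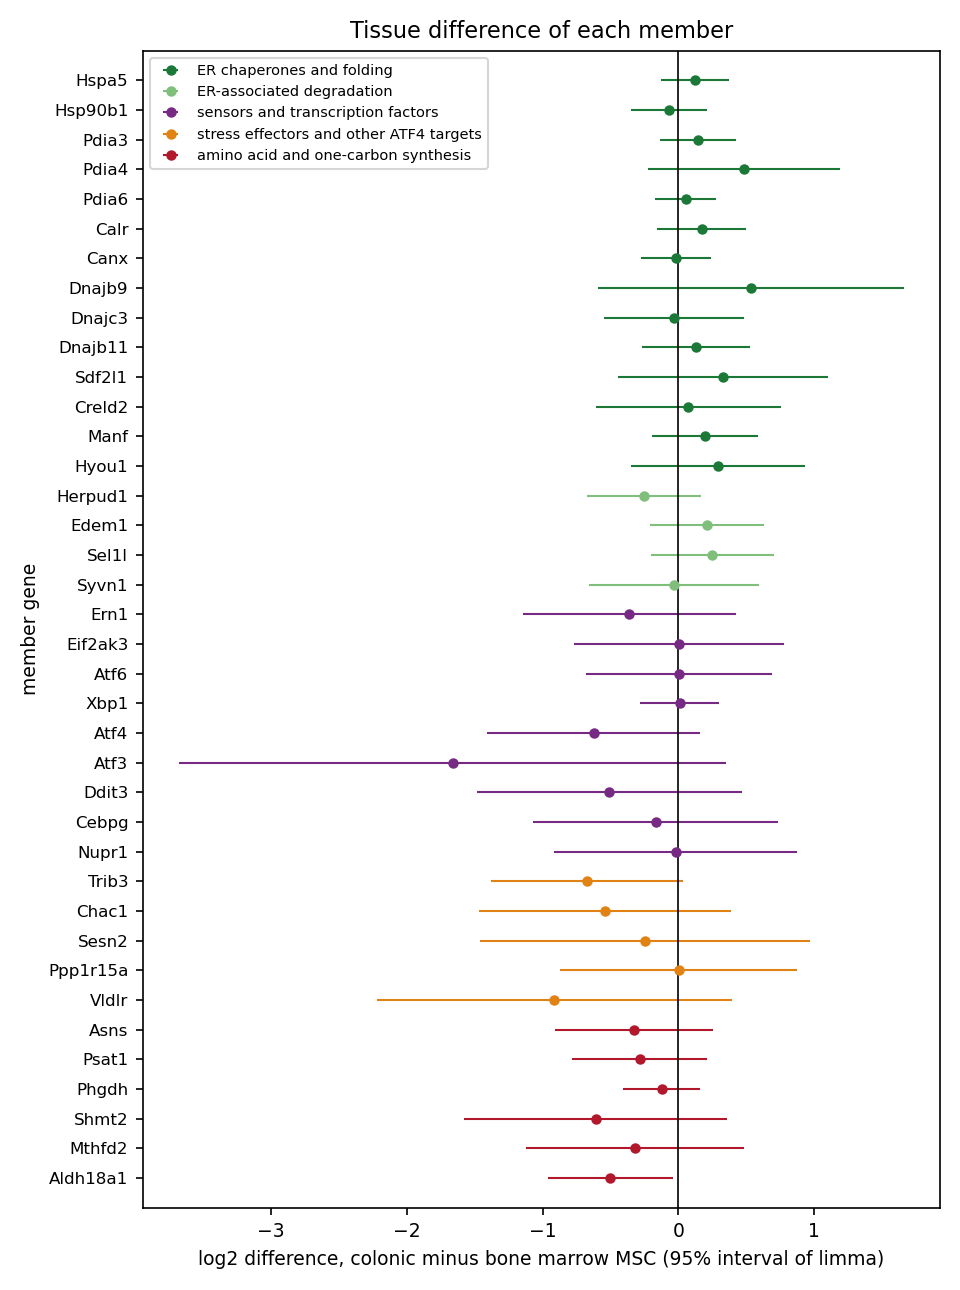
Log2 difference of each member, colonic minus bone marrow MSC, with the 95% interval of limma from 2 arrays per tissue, coloured by role. Aldh18a1, at -0.50, is the 1 member whose interval leaves out 0, and Atf3 has the largest difference, -1.66, with the widest interval.

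Of the transcription factors below PERK, Atf4, Ddit3 and Atf3 varied more than the sensors. Cebpg spanned 0.72 on the log2 scale, little more than the sensor Ern1 at 0.66. Atf4 had intensities of 8467 and 7330 in the bone marrow lines, 3871 in colonic replicate 1 and 6755 in colonic replicate 2. Both colonic lines lay below both marrow lines, and colonic replicate 1 lay well below the other colonic line. The log2 difference was -0.62 ± 0.30 (SE, unadjusted p = 0.0951 and adjusted p = 0.935 by limma), -0.30 in a second probe set, and -0.22 without colonic replicate 1. The mRNA level of Atf4 does not report its translation, through which the pathway mainly acts.

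Ddit3, the gene of CHOP, which ATF4 induces and which drives cell death under lasting stress, had 8001 and 4369 in the marrow lines and 3409 and 5056 in the colonic lines. It was highest on bone marrow replicate 1 and lowest on colonic replicate 1, with overlapping tissues and a log2 difference of -0.51 ± 0.37 (SE). Its other probe set had 245 and 146 against 22.5 and 125, without overlap and with a log2 difference of -1.52. Atf3, an immediate stress and injury factor, was the most variable member, at 1013 and 279 in the marrow lines and 233 and 108 in the colonic lines. Its 4 arrays spanned 3.07 on the log2 scale, and the tissue difference of -1.66 ± 0.76 (SE, adjusted p = 0.922 by limma) was -0.76 without bone marrow replicate 1. Bone marrow replicate 1 was the highest array for Atf3, Ddit3, Eif2ak3, Atf4, Trib3, Chac1 and Sesn2, 7 of 38 members (24.1% of all genes). That array also had the highest summed macrophage markers, through Lyz2 (1589). Of the other macrophage markers above the filter, Cd68, Csf1r and Cd14 were highest on colonic replicate 1, and Itgam on bone marrow replicate 2. A part of macrophages in these values was not tested.

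Cebpg, a partner of ATF4 on composite elements, and Nupr1, a stress-induced chromatin protein, spread more between lines than between tissue means. Cebpg had 1489 and 2273 in the marrow lines and 1375 and 1949 in the colonic lines, replicate 2 being higher in each tissue. Nupr1 had 7384 and 7455 in bone marrow, and the colonic lines lay on either side at 10251 and 5220. Nupr1 was thus highest on the array on which Atf4 was lowest, and its promoter carries the composite element shown above.

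Among the effectors, Trib3, the pseudokinase that restrains AKT and feeds back on ATF4, had 4268 and 4230 in the marrow lines and 2127 and 3333 in the colonic lines. The marrow lines lay close together and above both colonic lines, with a log2 difference of -0.67 ± 0.27 (SE, unadjusted p = 0.0580 and adjusted p = 0.848 by limma), and -0.98 in its other probe set. Without colonic replicate 1 the difference was -0.35. Chac1, which degrades glutathione, had 3630 and 3138 in bone marrow and 1696 in colonic replicate 1, whereas colonic replicate 2, at 3158, lay between the marrow lines.

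Sesn2, Ppp1r15a and Vldlr were not lowest on colonic replicate 1 in the probe sets used. Sesn2, a leucine sensor that restrains mTORC1, was highest in bone marrow replicate 1, at 719, while the remaining lines had 352 to 423. Its other probe set had 647 and 364.5 in the marrow lines and 362 and 396 in the colonic lines, with colonic replicate 1 lowest. Ppp1r15a, the gene of GADD34, which reverses eIF2 phosphorylation, had 1430 and 1178 against 1607 and 1055 and a log2 difference of 0.00. Vldlr, a lipoprotein receptor that ATF4 can induce, had 3412 and 6648 in the marrow lines and 3611 and 1763 in the colonic lines. All 6 probe sets of Vldlr had negative differences, from -1.39 to -0.67, and bone marrow replicate 2 was highest and colonic replicate 2 lowest for the one used here. Colonic replicate 2 was also the lowest array for Atf3, Nupr1 and Ppp1r15a and for 9 of 38 members in all (20.1% of all genes). Vldlr thus separated the lines along a different axis than Atf4, Trib3 and Chac1.

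**Figure D3:**
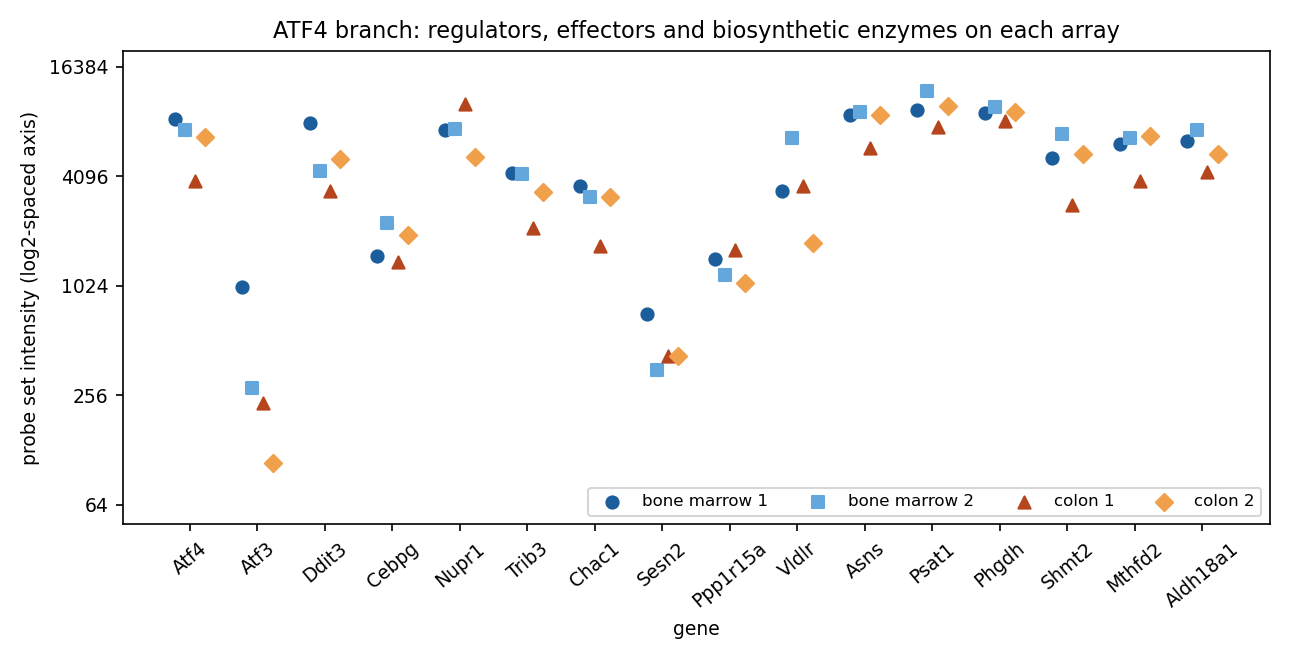
Probe set intensity, on a log2-spaced axis, of Atf4 and 15 further members of the ATF4 branch on the 4 arrays, each point being 1 array. Colonic replicate 1 (triangles) is the lowest point for Atf4, Ddit3, Cebpg, Trib3, Chac1 and the 6 biosynthetic genes at the right, and the highest for Nupr1 and Ppp1r15a.

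Amino acid and one-carbon synthesis, which ATF4 supplies with enzymes, had colonic replicate 1 as the lowest array throughout. Asns, asparagine synthetase, had 8869 and 9262 in the marrow lines and 5868 and 8869 in the colonic lines. The other arrays were thus nearly level and colonic replicate 1 lay below them. The tissue difference of -0.33 on the log2 scale was -0.03 without that line.

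The enzymes of serine synthesis, which draws on a glycolytic intermediate, followed with smaller steps. Phgdh, the first enzyme of the path, had 9127 and 9845 in the marrow lines and 8259 and 9172 in the colonic lines. Psat1, the next, had 9427 and 11945 against 7659 and 9923. Both were lowest on colonic replicate 1 and highest on bone marrow replicate 2.

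The mitochondrial folate enzymes, which pass the carbon of serine on, showed the larger gaps. Shmt2 had 5142 and 6952 in bone marrow, 2831 in colonic replicate 1 and 5425 in colonic replicate 2, a span of 1.29 on the log2 scale. Mthfd2 had 6157 and 6650 in the marrow lines and 3828 and 6835 in the colonic lines, so its colonic lines were the lowest and the highest of the 4. Both genes were lower on colonic replicate 1 than on colonic replicate 2, with differences between these lines of -0.93 and -0.83 on the log2 scale, larger than their tissue differences of -0.61 and -0.32.

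Aldh18a1, the enzyme that commits glutamate to proline, had 6367 and 7311 in the marrow lines and 4291 and 5404 in the colonic lines. Both colonic lines lay below both marrow lines, with a log2 difference of -0.50 ± 0.17 (SE, unadjusted p = 0.0383 and adjusted p = 0.760 by limma). All 5 of its probe sets had negative differences, from -0.77 to -0.50. Without colonic replicate 1 the difference was -0.34.

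Taking the 6 genes as a group, 6 of 6 had negative log2 differences, against 6271 of all 12920 genes. Their median was -0.33, and 1 had an unadjusted p below 0.05. All 19 of their probe sets were above the filter, and in 19 of 19 colonic replicate 1 was the lowest array. Without colonic replicate 1 the median was -0.07 and 5 of 6 differences were negative, so the size of the tissue difference rests on that line. All 6 were lower on colonic replicate 1 than on colonic replicate 2 (49.8% of all genes), which follows from its being the lowest array. The median difference between these lines was -0.48.

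Further genes of these pathways were taken from lists by function. Of 36 other ATF4 targets tested 25 were lowest on colonic replicate 1 (28.8% of all genes) and 0 were highest there, while 24 were highest on bone marrow replicate 2 (23.9% of all genes). In 29 of 36 the colonic mean was the lower, against 6271 of all 12920 genes. Their median log2 difference over the 36 was -0.31, and 0 passed an adjusted p of 0.05. Without colonic replicate 1 the median was -0.22 over 25 lower genes, and without bone marrow replicate 2 it was -0.16 over 24. The tissues did not overlap for 15 genes lower in colonic MSC (15.1% of all genes) and 1 higher (18.4% of all genes).

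At an unadjusted p below 0.05 by limma there were 4 lower and 0 higher genes among them, against 2.7% and 3.3% of all genes. Slc6a9, the glycine transporter GLYT1, was first, at 1917 and 2914 in the marrow lines and 559 and 715 in the colonic lines. Both colonic lines lay below both marrow lines, with a log2 difference of -1.88 ± 0.34 (SE, unadjusted p = 0.00361 and adjusted p = 0.324 by limma). Mthfd1l, a further mitochondrial folate enzyme, had 4399 and 6438 against 2092 and 2859, and Slc1a5, a glutamine carrier, 2622 and 2860 against 1201 and 1869. The fourth was the methionyl-tRNA synthetase gene Mars, with 7275 and 7131 against 3440 and 5487. In all 4 genes colonic replicate 1 was lowest and colonic replicate 2 next.

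On the ER side, 10 of 17 other degradation genes and 10 of 24 other folding and oxidation genes were highest on colonic replicate 1, against 30.1% of all genes. So were 9 of 22 genes of translocation and ER export. Colonic replicate 1 was above colonic replicate 2 for 15 of 17 degradation, 14 of 24 folding and 13 of 22 translocation and export genes, against 50.2% of all genes. Bone marrow replicate 2 was the lowest array for 11, 14 and 12 genes of these 3 lists in that order, against 32.5% of all genes. Their median tissue differences were small, at 0.14, 0.09 and 0.10 on the log2 scale, and 0 genes of any of the 3 lists had an unadjusted p below 0.05. The lowest p-values belonged to Vcp, the ATPase that extracts proteins from the ER membrane (7040 and 7140 against 8944 and 8162), and to Fkbp11, a prolyl isomerase of secretory cells. Fkbp11 had 2749 and 2382 in the marrow lines and 1550 and 434 in the colonic lines, the reverse direction and a wider gap. In the translocation and export list Lman1, a cargo receptor, had the lowest unadjusted p, 0.165 by limma, with a log2 difference of 0.25 ± 0.15 (SE). The largest difference there was that of Kdelr3, an ER retrieval receptor, at 0.56 with overlapping tissues.

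Other sensors, kinases and membrane-bound factors had 10 of 16 genes higher in colonic MSC, against 6649 of all 12920 genes. The list had a median log2 difference of 0.10 and 0 genes at an unadjusted p below 0.05. The first of them by p was Ppp1r15b, the constitutive partner in eIF2 dephosphorylation, at 5153 and 5688 in the marrow lines and 4000 and 4614 in the colonic lines. Wfs1, an ER membrane protein that ER stress induces, had 2004 and 1225 against 3541 and 2071. Neither gene's tissues overlapped.

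**Figure D4:**
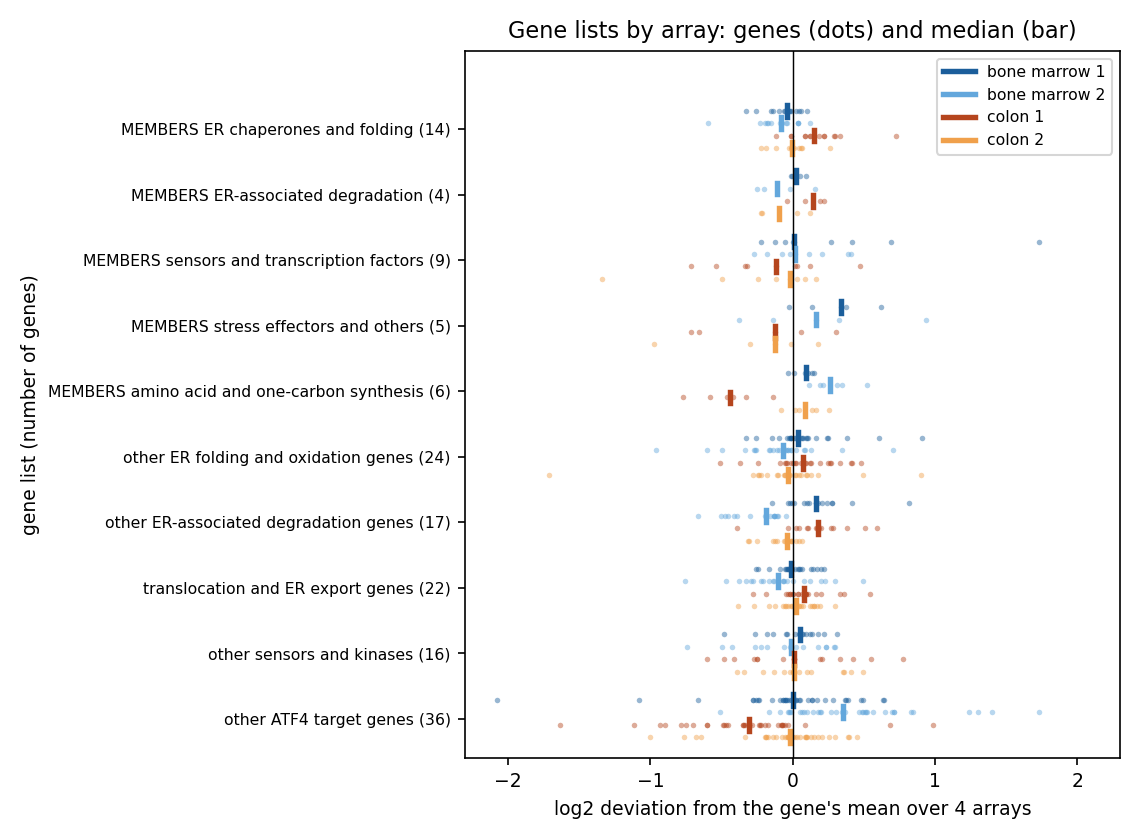
Log2 deviation from each gene's mean over the 4 arrays, for the members by role and for the other pathway lists, with 1 dot per gene and a bar at the median of each array. On colonic replicate 1 the median is -0.44 for the amino acid and one-carbon members and -0.31 for the other ATF4 targets, against 0.15 for the chaperone members.

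The promoter elements were also set against the arrays. Of 267 tested genes that hold the ATF4 composite element but belong to none of these lists, 82 were lowest on colonic replicate 1 (30.7%), near the 28.8% of all genes. Within the lists it was 11 of 19. Among the 6 amino acid and one-carbon members measured, 1, Asns, held the element in the window, and all 6 were lowest on that array. Of the 8 members with the ER stress response element 4 were highest on colonic replicate 1, and of 6 tested genes with the element outside the lists 1 was.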

How the data were processed

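For each of 4 arrays the authors deposited 1 linear intensity per probe set, a unit inferred from the range of the numbers. How the authors summarised, background-corrected and scaled them is not given in the sources used here. Between 981 and 1016 values per array are exactly 1. Probe sets were named by the platform annotation where it gives 1 symbol (34945 of 45101), and 64 controls were left out.

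Values were transformed as log2(intensity + 13.7), 0.25 of the median of all values, which understates differences of dim genes. Probe sets passed when their mean log2 value exceeded the 40th percentile (intensity about 31.9), and a gene was represented by its probe set of highest mean. The tissue contrast was fitted with limma 3.58.1 under R 4.3.3 (lmFit, eBayes with intensity trend, 2 residual degrees of freedom, prior 2.53), two-sided, with Benjamini-Hochberg adjustment over 12920 genes. The procedure was tested on simulated data. An exact permutation test of 2 against 2 arrays cannot go below 0.333. The arrays limit the precision of every value.

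The members and lists were chosen with earlier results of these data known. Named genes are all members, those first by unadjusted p from other lists, up to 3 each, and any others chosen after their values were seen, such as Mars, Thy1 and Kdr. Promoters are from RefSeq, and the search with any variable base in the ATF4 element was added after seeing the data. Of the list symbols 1 was matched to a newer name. Alternatives are in the closing section, and those for the chaperone, amino acid and other ATF4 target lists were chosen after seeing the data.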

Additional observations from a re-analysis of the deposited data

How the results depend on the processing

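With 2 lines a tissue no member was called, and the power to detect differences of the size seen in most members was not estimated. Under every alternative run, 0 members passed an adjusted p of 0.05 by limma, the smallest being 0.163. The count over all genes, 0 in the reported fit, was 17 after median centring and 13 after quantile normalization. It was 15 with robust eBayes, 15 when the 60th percentile was the filter, 13 when the trend was left out, 13 when the pseudocount was 1 and 12 when probe sets were averaged, and ranged from 0 to 33 with an array left out. Genes with an unadjusted p below 0.05 (775) then ranged from 533 to 1357. The members with an unadjusted p below 0.05, 1 in the reported fit, were 0 when probe sets were averaged, 0 when the trend was left out, and 0 to 8 with an array left out. Among the other ATF4 targets that count, 4, ranged from 1 to 8. With an array left out, the median log2 difference ranged from -0.062 to 0.018 for the members and from -0.56 to -0.16 for the other ATF4 targets. Those fits give a tissue left with 1 array the spread of the other.

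The tissues share replicate numbers, which the labels do not describe as pairs. Deviations of same-numbered lines correlated across genes at 0.11. With the replicate number as a block, 4 members and 7 other ATF4 targets had an unadjusted p below 0.05, as did 967 of 12920 genes, against 775 without it. The block changed no adjusted call: 0 genes and 0 members passed.

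Of 532 differences of members under an alternative, 500 kept their direction and 32, in 15 members, reversed, none of them called. Quantile normalization gave -0.0038 for Pdia6 and -0.017 for Xbp1. Median centring gave -0.013 for Eif2ak3, -0.013 for Atf6, -0.0077 for Xbp1 and -0.015 for Ppp1r15a. The mean of probe sets gave -0.016 for Hspa5, 0.15 for Dnajc3, 0.016 for Syvn1, -0.0043 for Atf6 and -0.10 for Xbp1. With an array left out the range was -0.11 to 0.13 for Atf6, -0.046 to 0.014 for Canx, -0.47 to 0.14 for Cebpg, -0.19 to 0.34 for Creld2, -0.14 to 0.078 for Dnajc3, -0.26 to 0.28 for Eif2ak3 and -0.15 to 0.014 for Hsp90b1. It was -0.74 to 0.095 for Mthfd2, -0.51 to 0.47 for Nupr1, -0.30 to 0.31 for Ppp1r15a, -0.75 to 0.25 for Sesn2, -0.24 to 0.18 for Syvn1 and -0.014 to 0.038 for Xbp1. The cause was not tested. Under quantile normalization and median centring, 6 of 6 amino acid and one-carbon members stayed lowest on colonic replicate 1. The array medians that centring levels lay within 0.04 on the log2 scale, so it could move little. Neither another pseudocount nor the mean of their probe sets, 19 of 19 lowest there, could alter that order.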
